A study of Mus musculus with 15 samples.

Results

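Arid5a is a protein with an AT-rich interaction domain that binds RNA and is known for holding inflammatory mRNAs against decay. The comparison described here is that of the RNA precipitated with an Arid5a antibody against the RNA precipitated with mouse IgG2b, both from ST2 cells treated with IL-17. ST2 cells are stromal cells of mouse bone marrow, kept as an established line. The comparison uses 7 of the 15 libraries of the series, 4 of the Arid5a RIP (RNA immunoprecipitation, replicates 1 to 4) and 3 of the IgG RIP (replicates 2 to 4), and they were chosen by antibody and treatment as labelled. In both groups the cells received 200 ng/mL of IL-17 for 3 h, were trypsinised, crosslinked with 1% formaldehyde and lysed. The other 8 libraries come from cells kept in medium for the same 3 h, and share no library with the comparison after IL-17. Nothing in the labels says that replicates were separate cultures, so p-values measure the spread between these libraries, which may be technical.

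IL-17 acts on stromal cells through a receptor of IL-17RA and IL-17RC and the adaptor Act1, which leads to NF-kB and C/EBP activity and to chemokine and cytokine mRNAs that are short-lived. Proteins that bind the 3′ ends of these mRNAs decide how long they last: Regnase-1 (Zc3h12a) destroys them and Arid5a is reported to protect some of them, among them Il6, Stat3, Tbx21 and Tnfrsf4. A RIP reads this as an excess of a transcript in the antibody's precipitate over that of the control IgG. With no unprecipitated RNA among the libraries used here, an excess is a difference between 2 precipitates and not an enrichment over the cell's RNA.

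The libraries held 2216655 to 4496924 counts in the IgG RIP and 3411753 to 5713913 in the Arid5a RIP. Two-sided tests were made with edgeR's quasi-likelihood test over 17835 transcripts, and a transcript is called where its Benjamini-Hochberg adjusted p is below 0.05. Levels are CPM (counts relative to the library's total, scaled with TMM factors). All 20 marrow stromal markers passed the filter, and Col1a1, the main collagen of these cells, lay between 6094 and 8486 CPM in every library. Thy1, Nt5e, Tnfsf11 and Eng, which are in that list too, were scarce: Thy1 lay between 0.21 and 6.23 CPM, Eng between 2.28 and 9.42, and Nt5e and Tnfsf11 were at 0 in at least 1 library. The summed CPM of those 20 markers was 12978 to 16221 in the IgG and 12115 to 17707 in the Arid5a RIP. The chemokine mRNA Cxcl5, which IL-17 induces, averaged 47.2 ± 18.4 CPM (SD, n = 3) in the IgG RIP after IL-17 and 1.09 ± 0.81 (SD, n = 4) in the IgG RIP from medium. The library Arid5a IL-17 4 stood apart from the other Arid5a libraries. Log2 CPM correlated across genes at an r of 0.985 in each pairing of Arid5a IL-17 1, 2 and 3, and at 0.958 to 0.972 between these and Arid5a IL-17 4. IgG IL-17 4, the shallowest library, stood apart from all others, at 0.913 to 0.936, while IgG IL-17 2 and 3 correlated at 0.946. The IgG libraries did not group by antibody. IgG IL-17 3 correlated with each Arid5a library (0.957 to 0.968) more than with either other IgG library. IgG IL-17 2 correlated with Arid5a IL-17 1 and 2 at 0.942 and 0.943, and with Arid5a IL-17 3 and 4 at 0.96 and 0.955. Genes are not independent replicates. Results that rest on Arid5a IL-17 4 are given with and without it, and the calls without each other library are given further on.

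Few transcripts separated the precipitates. In the Arid5a RIP 10 transcripts were called higher (0.0561% of those tested) and 2 lower (0.0112%), 0.0673% in either direction. At an unadjusted p below 0.05, 846 were higher (4.74%) and 750 lower (4.21%), together 8.95%. DESeq2 called 42 higher (0.235%) and 29 lower (0.163%), and limma voom 244 (1.37%) and 235 (1.32%). The 12 called transcripts did not overlap between the groups, which held for 945 of all tested transcripts upwards (5.30%) and for 783 downwards (4.39%). The called transcripts are 11 mRNAs and 1 small nucleolar RNA, and no more than 1 member was called in any list of a pathway or complex described below. None of them is a cytokine, a chemokine or another of the 26 mRNAs listed as inducible by IL-17, of which 18 were tested.

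Nsa2, a nucleolar factor in the maturation of the large ribosomal subunit, had the smallest adjusted p. It stood at 219, 221 and 222 CPM in the IgG libraries and at 520, 360, 367 and 598 CPM in the Arid5a libraries. The IgG libraries were nearly equal, and every Arid5a library lay well above them, with libraries 1 and 4 highest. The log2 fold was 1.06 ± 0.17 (SE, adjusted p = 0.00697). It was called in each of the 7 fits that left out a single library, with an adjusted p of 0.0124 without Arid5a IL-17 4. Nsa2 (chr13:97129427-97137926, GRCm38.p6) overlaps the gene model of Fam169a.

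Hbs1l, the GTPase that works with Pelota to free stalled ribosomes, was the second called mRNA of the translation apparatus. It was at 124, 97.7 and 153 CPM in the IgG libraries and at 252, 259, 176 and 227 CPM in the Arid5a libraries. The lowest Arid5a library lay just above the highest IgG library. Its log2 fold was 0.88 ± 0.17 (SE, adjusted p = 0.0280). Of 24 tested rescue and quality-control genes edgeR called Hbs1l alone, and its partner Pelo had a log2 fold of -0.19 ± 0.49 (SE, adjusted p = 0.933). Of 81 ribosome biogenesis factors edgeR called Nsa2 alone, and limma voom called 4, all higher. At an unadjusted p below 0.05, 10 were higher and 0 lower, beside 12.8% and 1.3% of the 5390 well-expressed transcripts (an average log2 CPM of at least 5). The log2 fold was above 0 for 69 of the 81, and 17 lay above and 1 below every IgG library, beside 11.2% and 1.35% of the well-expressed transcripts. Their summed level was 15183 to 15625 CPM in the IgG and 17258 to 19002 CPM in the Arid5a libraries, so the groups did not overlap. The median log2 fold was 0.18, beside 0.15 over the well-expressed transcripts and -0.01 over all tested.

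Among metabolic enzymes Mat2a and Cyb5r3 rose. Mat2a, the catalytic subunit that makes S-adenosylmethionine, was at 105, 75.7 and 76.1 CPM in the IgG and at 211, 173, 148 and 167 CPM in the Arid5a libraries. The groups were clearly apart, and the log2 fold was 1.02 ± 0.18 (SE, adjusted p = 0.00919). Cyb5r3, the reductase that passes electrons to cytochrome b5 for fatty acid desaturation and sterol synthesis, was the most abundant called mRNA. It was at 614, 627 and 577 CPM in the IgG and at 1589, 1014, 951 and 1345 CPM in the Arid5a libraries. As with Nsa2, the IgG libraries were close together and Arid5a libraries 1 and 4 were the highest. The log2 fold was 1.01 ± 0.17 (SE, adjusted p = 0.00865). Of 31 tested genes of the methionine cycle and polyamines, Mat2a alone was called, and of 41 of cholesterol and fatty acid synthesis, Cyb5r3 alone.

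Of proteins of membranes and transport, Ap3s1, Kif1c and Sh3glb1 were called, each at an adjusted p of 0.0491. Ap3s1, the small subunit of the AP-3 adaptor that sorts cargo to lysosomes, was at 46.3, 65.8 and 37.3 CPM in the IgG and at 136, 87.3, 86.5 and 101 CPM in the Arid5a libraries, a log2 fold of 1.04 ± 0.22 (SE). Kif1c, a kinesin that carries cargo and mRNAs along microtubules, was at 289, 272 and 318 CPM against 621, 467, 416 and 464 CPM, a log2 fold of 0.75 ± 0.15 (SE). Sh3glb1, endophilin B1, which bends membranes in autophagy and at mitochondria, was at 171, 168 and 150 CPM against 320, 276, 252 and 220 CPM, a log2 fold of 0.71 ± 0.15 (SE). In all 3 the highest library was Arid5a IL-17 1, and the lowest Arid5a library exceeded the highest IgG library. Single members of their lists were called in each case, 1 of 48 adaptor and coat genes, 1 of 61 motor genes and 1 of 38 genes of autophagy and membrane curvature.

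Ppp1r11, an inhibitor of protein phosphatase 1, was at 54.6, 60.9 and 55.5 CPM in the IgG and at 117, 114, 96.5 and 113 CPM in the Arid5a libraries. Both groups were tight, and the log2 fold was 0.95 ± 0.20 (SE, adjusted p = 0.0491). Rwdd1, whose protein binds the GTPase Drg2, was at 175, 268 and 140 CPM in the IgG and at 450, 436, 354 and 385 CPM in the Arid5a libraries. Here the IgG libraries were spread and the Arid5a libraries were close, and the log2 fold was 1.06 ± 0.18 (SE, adjusted p = 0.00708). A second phosphatase 1 inhibitor, Ppp1r14b, was at 117, 154 and 131 CPM in the IgG and at 307, 287, 205 and 192 CPM in the Arid5a libraries. Its groups did not overlap, and its adjusted p was 0.0558 (0.0284 without Arid5a IL-17 4). It was 0.0159 with DESeq2 and 0.00527 with limma voom. Of 35 tested phosphatase 1 subunits and regulators the median log2 fold was 0.03, below that of the well-expressed transcripts.

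**Figure D1:**
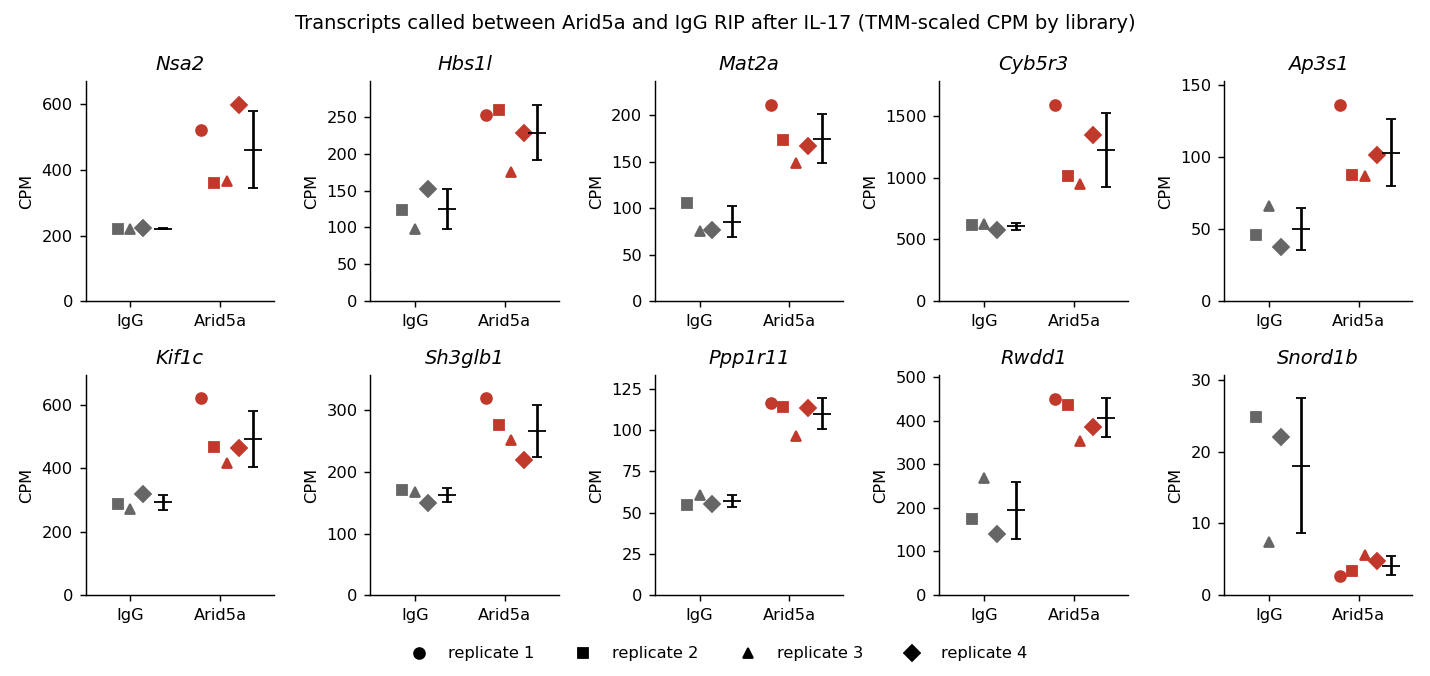
TMM-scaled CPM (vertical axes, from 0) of 10 called transcripts in each library, IgG in grey and Arid5a in red, with a marker shape per replicate number and the mean and SD in black. In every panel the 2 groups are apart, with Snord1b lower and the other 9 higher in the Arid5a RIP, and Arid5a IL-17 4 lies within or near its group.

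The remaining called pair, Zfp433 and Gm32687, are zinc finger genes of one cluster on chromosome 10 (chr10:81704747-81721976 and chr10:81863769-81881086, GRCm38.p6). Zfp433 was called lower (adjusted p = 0.0352) and Gm32687 higher (adjusted p = 0.00919). Their RefSeq promoter windows align over 257 bases with 256 identical, and a stretch of them is shown because a single base in it tells the genes apart. The lines give 85 bases of each window, 5′ to 3′ on the plus strand of the build. They end before the first base of the Zfp433 model and directly before that of Gm32687, with the only differing base in capitals (G31T, counted from 1 at the 5′ end, Zfp433 first).
Zfp433, chr10:81704575-81704659: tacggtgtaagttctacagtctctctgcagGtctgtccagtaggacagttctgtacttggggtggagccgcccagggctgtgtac
Gm32687, chr10:81863684-81863768: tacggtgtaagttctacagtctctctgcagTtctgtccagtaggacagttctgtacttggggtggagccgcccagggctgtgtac

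The counts of the 2 genes replaced one another. Zfp433 had 43, 18 and 11 counts in the IgG libraries after IL-17 and 0 in all 4 Arid5a libraries. Gm32687 had 0 counts in those 3 IgG libraries and 48, 41, 45 and 17 in the Arid5a libraries. Against a floor of 3 counts per library, Zfp433 was at least 10.1-fold lower and Gm32687 at least 7.87-fold higher in the Arid5a RIP. In the libraries from medium, Gm32687 took the counts with either antibody: 21, 4, 29 and 15 in the IgG and 13, 0, 10 and 25 in the Arid5a libraries. There Zfp433 had 2 counts, in Arid5a medium 2, and 0 in the other 7 libraries. So no library held counts of both genes, and the 3 IgG libraries after IL-17 were the ones, with Arid5a medium 2, in which Zfp433 was the gene counted.

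Added up, the pair did not separate the groups. It came to 9.21, 6.30 and 5.26 CPM in the IgG and to 10.1, 9.34, 8.62 and 4.81 CPM in the Arid5a libraries, which overlap. The log2 fold of the sum was 0.23 ± 0.58 (SE, adjusted p = 0.933). With the pair counted as 1 gene, 5 transcripts were called higher and 0 lower (Nsa2, Rwdd1, Cyb5r3, Mat2a and Hbs1l), since the 5 others at an adjusted p of 0.0491 then missed the threshold. A neighbouring pair, Zfp781 and Gm3055, has identical windows over all 300 bases. Zfp781 had 38.6 expected counts in IgG IL-17 3 and 3.12 in Arid5a IL-17 1, and 0 in the other 5 libraries after IL-17, where Gm3055 had 16.6 to 90.5. Together that pair had 42.2, 61.6 and 16.6 counts in the IgG and 58.7, 90.5, 63.8 and 51.4 in the Arid5a libraries. Of the 13933 tested genes with a window, 313 (2.25%) shared a run of 100 bases with another gene, and of the 8 called genes with one these were Zfp433 and Gm32687. Since the counts of Zfp433 and Gm32687 replaced one another, the value of each alone is uncertain. Their transcript sequences were not compared, and how the reads were shared between them was not tested.

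**Figure D2:**
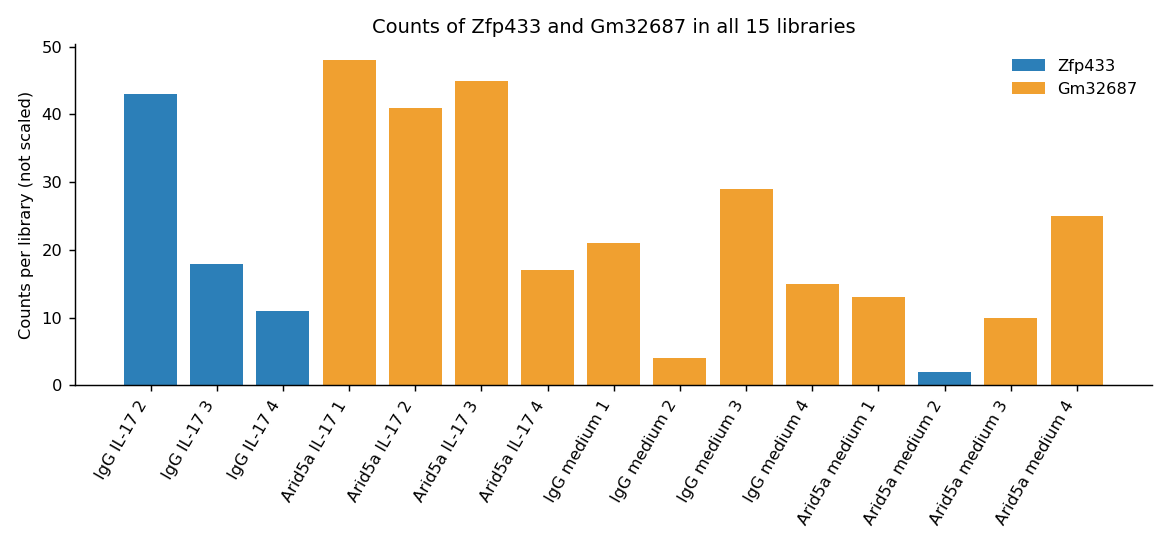
Expected counts (vertical axis, per library, not scaled) of Zfp433 in blue and Gm32687 in orange, stacked, in all 15 libraries. Each bar has a single colour, blue in IgG IL-17 2, 3 and 4 and in Arid5a medium 2 and orange in the others.

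The other called lower transcript was Snord1b, a box C/D small nucleolar RNA (snoRNA), of the class that guides 2′-O-methylation of ribosomal and spliceosomal RNA. It lies within Snhg16 (chr11:116674147-116674223, GRCm38.p6). Snord1b was at 24.8, 7.36 and 22.0 CPM in the IgG and at 2.73, 3.42, 5.55 and 4.81 CPM in the Arid5a libraries. IgG IL-17 3 was close to the Arid5a libraries, with 21 counts against 13 to 29, and the other IgG libraries were far above. The log2 fold was -2.13 ± 0.44 (SE, adjusted p = 0.0491), and the host RNA Snhg16 had 0.86 ± 0.61 (SE, adjusted p = 0.715). Snord1b is listed at 0 FPKM in every library.

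Most other tested snoRNAs had a log2 fold below 0. Of 119 snoRNAs and small Cajal body RNAs listed by the deposited counts, 25 were tested, 20 of these had a log2 fold below 0, and the median was -0.87 (-0.97 with scaling factors from well-expressed genes and -1.20 without Arid5a IL-17 4). Beside Snord1b edgeR called no member. DESeq2 called Snord1b lower and Scarna13 higher, and limma voom called 5 lower and Scarna13 higher (adjusted p of 0.0170 and 0.0013 for Scarna13). At an unadjusted p below 0.05, 9 of the 25 were lower and 2 higher, beside 4.21% and 4.74% of all tested transcripts. In every Arid5a library 8 lay below the IgG group and 2 above it, beside 4.39% and 5.30% of all tested transcripts. Rnu3a, the U3 RNA of pre-ribosomal RNA cleavage, was at 134, 71.1 and 115 CPM in the IgG and at 17.2, 23.9, 38.9 and 50.1 CPM in the Arid5a libraries. It was below every IgG library, with a log2 fold of -1.73 ± 0.35 (SE, adjusted p = 0.0975, and 0.0248 without Arid5a IL-17 4).

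The abundant snoRNAs Snord15b, Snord15a and Snord22 had log2 folds of -1.17 ± 0.36, -1.14 ± 0.39 and -1.27 ± 0.45 (SE), with adjusted p of 0.381, 0.431 and 0.448. Snord17 (-0.75 ± 0.23) and Snord1c (-1.67 ± 0.50), with adjusted p of 0.300 and 0.295, had the next smallest unadjusted p. Scarna13 ran the other way. This small Cajal body RNA was at 71.3, 80.9 and 89.5 CPM in the IgG and at 226, 163, 224 and 578 CPM in the Arid5a libraries, with Arid5a IL-17 4 far above the rest. Its log2 fold was 1.89 ± 0.45 (SE, adjusted p = 0.269), and 1.35 ± 0.25 (adjusted p = 0.0306) without that library. In medium it was higher by 2.24 ± 0.42 (SE, adjusted p = 0.0459). Rnu12, the U12 RNA of the minor spliceosome and no snoRNA, also stood above the IgG group. It was at 7.28, 2.80 and 7.66 CPM in the IgG and at 17.8, 17.8, 19.3 and 50.1 CPM in the Arid5a libraries, again with Arid5a IL-17 4 highest. Its log2 fold was 2.13 ± 0.76 (SE, adjusted p = 0.444), beside 2.27 ± 0.66 (SE, adjusted p = 0.163) in medium.

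Beyond the called transcripts, the next 15 higher and the next 10 lower with non-overlapping groups had adjusted p of 0.0558 to 0.116 and of 0.0975 to 0.176. The higher ones included Psmg4, a proteasome assembly chaperone (1.20 ± 0.26, adjusted p = 0.0558), Rala, a small GTPase of vesicle docking (0.93 ± 0.21, 0.0759), and Bola3, a factor of mitochondrial iron-sulphur clusters (1.16 ± 0.26, 0.0975). Further members were Gpx1, which reduces hydrogen peroxide (0.77 ± 0.18, 0.0850), Rpl35, a protein of the large ribosomal subunit (0.74 ± 0.17, 0.0975), and Ybx1, a Y-box protein that coats mRNA (0.57 ± 0.14, 0.116). Ybx1 stood at 1152, 1232 and 1432 CPM in the IgG and at 2361, 1692, 1534 and 1961 CPM in the Arid5a libraries. The others were Anapc5, Ubxn1, Cenpb, Chpt1, Rangap1, Ndufb4c, Gtf2a2 and Gxylt1, with log2 folds from 0.62 to 1.05. By edgeR none of these 15 fell under the threshold, so none is called. DESeq2 and limma voom put all 15 below it. The adjusted p ran from 0.00628 (Rangap1) to 0.0499 (Rpl35) with DESeq2, and from 0.0013 (Rpl35) to 0.0392 (Rala) with voom.

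The lower ones included scarce mRNAs of other tissues. Atoh1, a transcription factor of neural and secretory cells, was at 8.99, 19.6 and 21.5 CPM in the IgG and at 3.56, 3.19, 3.25 and 5.66 CPM in the Arid5a libraries. Lgals4, a gut lectin, was at 3.21, 16.5 and 18.7 against 0.63, 0.23, 2.11 and 0 CPM. Ugt1a1, a liver glucuronosyltransferase whose model overlaps 8 others of its locus, was at 29.8, 36.8 and 64.1 against 8.39, 17.8, 14.7 and 27.7 CPM. In each of these 3 the groups were apart, and for Atoh1 and Ugt1a1 Arid5a IL-17 4 came closest to the IgG libraries. The others were Zan, a sperm protein, Nckap1l, which is found in blood cells, and Arhgef4, Dact1, Mfsd11 and Mrpl15, with log2 folds from -2.45 to -0.79. DESeq2 put all of these lower ones below the threshold except Lgals4 (adjusted p = 0.118), and limma voom all except Dact1 (0.0737).

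Of 8 mRNAs reported as bound or stabilised by Arid5a, 6 were tested and 0 were called, with 1 higher and 1 lower at an unadjusted p below 0.05 and 0 and 1 with non-overlapping groups. DESeq2 called Tbx21 alone among them (lower, adjusted p = 0.0414), and limma voom called Tbx21 lower (0.0158) and Cxcl5 higher (0.00404). Il6 and Tnfrsf4 had too few counts to be tested. Tbx21, a T cell transcription factor, was at 10.9, 10.2 and 7.18 CPM in the IgG and at 1.47, 2.05, 3.83 and 2.55 CPM in the Arid5a libraries. It was lower in every Arid5a library, at a scarce level, with a log2 fold of -1.92 ± 0.61 (SE, adjusted p = 0.319).

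Cxcl5, the neutrophil chemokine, was at 26.1, 55.7 and 59.8 CPM in the IgG and at 81.1, 89.1, 76.6 and 55.5 CPM in the Arid5a libraries. Arid5a IL-17 4 fell among the IgG libraries, and the log2 fold was 0.69 ± 0.29 (SE, adjusted p = 0.460). Nfkbiz, which codes for the IkB-zeta partner of NF-kB, was at 108, 87.6 and 73.7 against 121, 120, 110 and 93.4 CPM. Its groups overlapped, with a log2 fold of 0.30 ± 0.20 (SE, adjusted p = 0.683). Stat3, the transcription factor downstream of IL-6, had 0.19 ± 0.20 (adjusted p = 0.826). Cebpb and Cxcl1 had -0.02 ± 0.21 and -0.08 ± 0.24, and their sign changed with the setting. The Arid5a mRNA itself had -0.17 ± 0.38 (adjusted p = 0.925), from 10.3 to 37.1 CPM in the Arid5a libraries. The antibody binds the protein, so that level checks no label.

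EdgeR called no other mRNA of those that IL-17 induces, nor did DESeq2. Limma voom called Ccl7 (adjusted p = 0.0122) and Nfkbia (0.0482) higher, beside Cxcl5. Ccl7, a monocyte chemokine, was at 144, 168 and 167 CPM in the IgG and at 262, 272, 225 and 200 CPM in the Arid5a libraries. The groups were apart, and the log2 fold was 0.59 ± 0.18 (SE, adjusted p = 0.300). Nfkbia, the IkB-alpha inhibitor that NF-kB induces, was at 62.5, 53.6 and 86.1 against 119, 92.7, 90.4 and 91.2 CPM (0.55 ± 0.23, adjusted p = 0.473). Steap4, a metalloreductase, was at 7.005 to 9.42 CPM in the IgG and 2.68 to 3.68 CPM in the Arid5a libraries (-1.39 ± 0.54, adjusted p = 0.437). Zc3h12a had 0.18 ± 0.25 and Cebpd -0.01 ± 0.26, and the sign of Cebpd changed with the setting. The median over the 18 tested members was 0.12, with 3 higher and 1 lower at an unadjusted p below 0.05. Ccl2, the chief monocyte chemokine, had 0.04 ± 0.18, which turned below 0 with upper-quartile factors, library totals, factors from well-expressed genes and DESeq2. Of 30 genes of the IL-17 receptor and NF-kB pathway edgeR and DESeq2 called none and limma voom Nfkbia, with 1 at an unadjusted p below 0.05 and a median of 0.04.

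The folds depended on abundance. Over the 3176 transcripts with an average log2 CPM below 2, the median log2 fold was -0.47. It was -0.35 between 2 and 3, -0.18 between 3 and 4, 0.04 between 4 and 5, and 0.14 to 0.17 in each class above 5. Spearman's rho of the fold with the level was 0.37 over all tested transcripts. Library by library, the median difference from the IgG mean in the lowest class was -0.48, -0.46 and -0.30 in Arid5a IL-17 1, 2 and 3, and 0.46 in Arid5a IL-17 4. In the class of 7 to 8 it was 0.25, 0.28 and 0.21 in the first 3 and -0.08 in Arid5a IL-17 4. The IgG libraries differed among themselves in the lowest class too. Each set against the mean of the other 2, IgG IL-17 2, 3 and 4 lay at 0.61, 0.28 and -0.89. The Arid5a libraries were set against all 3 IgG libraries, and an IgG library set against the other 2 shows a larger difference. In the class of 7 to 8 the IgG libraries differed by less than Arid5a IL-17 1, 2 and 3 did from them, at -0.08, -0.03 and 0.12 for IgG IL-17 2, 3 and 4.

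**Figure D3:**
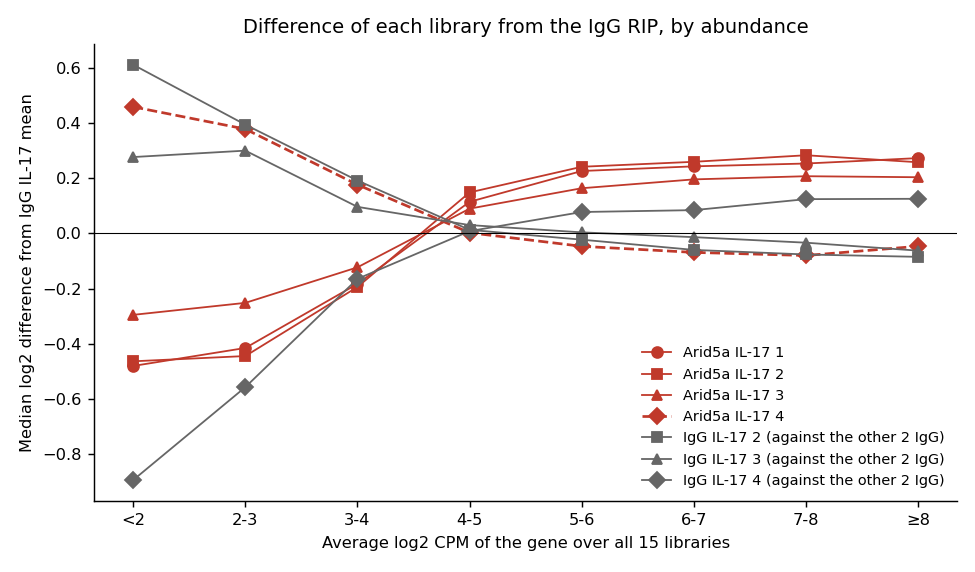
Median log2 difference (vertical axis) of each library from the mean of the IgG libraries after IL-17, in 8 classes of average log2 CPM (horizontal axis), Arid5a in red, Arid5a IL-17 4 dashed, and each IgG library in grey against the other 2. Arid5a IL-17 1, 2 and 3 rise from -0.48, -0.46 and -0.30 to above 0.2, and Arid5a IL-17 4 falls from 0.46 to -0.05.

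Among the 5390 well-expressed transcripts, 690 were higher (12.8%) and 70 lower (1.3%) at an unadjusted p below 0.05, and 606 were above (11.2%) and 73 below (1.35%) every IgG library. With factors computed from these transcripts alone, which shift their median fold from 0.15 to -0.01, the split was 240 higher and 266 lower, and no transcript was called (Nsa2 at an adjusted p of 0.0715). At an unadjusted p below 0.05 that scaling gave 1439 transcripts. The folds of the 9 called mRNAs other than the zinc finger pair lay between 0.545 and 0.935 under it. Library totals gave a split of 304 and 202, and upper-quartile factors 353 and 178. Without Arid5a IL-17 4 the split was 1143 and 89, and 42 transcripts were called higher and 34 lower, all 12 above among them. The additional higher ones included Cfl1, Actb, Rps26 and Eif3e, and the additional lower ones Gas5, a host RNA of snoRNAs, Rnu3a and Mfsd11. Without IgG IL-17 4 the calls fell to Nsa2 and Hbs1l. Of the 12 calls, 3 remained without Arid5a IL-17 1 (Nsa2, Rwdd1 and Gm32687), 5 without Arid5a IL-17 2, 7 without Arid5a IL-17 3, 3 without IgG IL-17 2 (Nsa2, Cyb5r3 and Mat2a) and 8 without IgG IL-17 3, which called 33 transcripts in all.

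**Figure D4:**
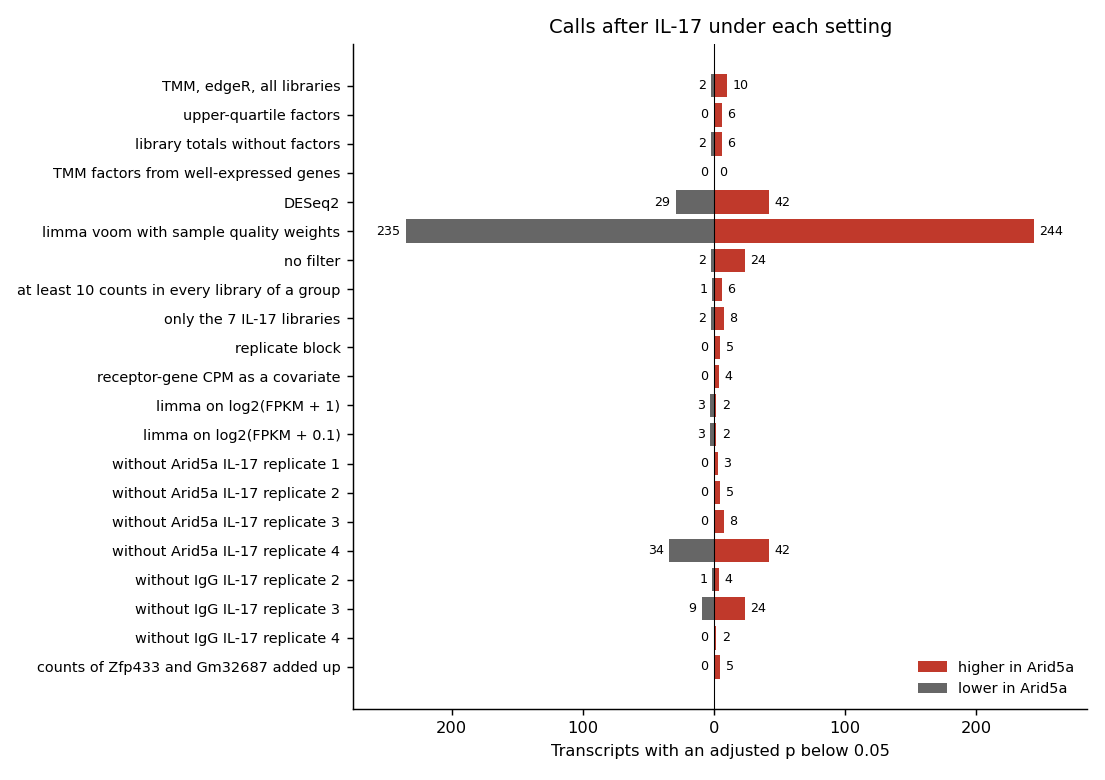
Number of transcripts called (horizontal axis) higher in the Arid5a RIP, to the right in red, and lower, to the left in grey, under the reported setting (top) and 20 others. The counts run from 0 with factors from well-expressed genes to 244 higher and 235 lower with limma voom, and they rise to 42 and 34 when Arid5a IL-17 4 is left out.

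The mRNAs of abundant machinery had medians near the 0.15 of well-expressed transcripts. These were 0.17 for cytosolic ribosomal proteins, 0.20 for translation factors, 0.21 for mRNA decay machinery, 0.13 for oxidative phosphorylation and 0.14 for extracellular matrix. EdgeR called no member of these lists. Of 85 ribosomal protein genes 23 were higher and 0 lower at an unadjusted p below 0.05, beside 12.8% and 1.3% of the well-expressed transcripts. Over all tested transcripts limma voom called 1.37% higher and 1.32% lower, and DESeq2 0.235% and 0.163%. Limma voom called 19 of the 85 ribosomal protein genes higher, 3 of them also called by DESeq2. Among these were Rps26 (DESeq2 adjusted p = 0.0340, voom 0.0013) and Rpl35 (0.0499 and 0.0013). Voom called 5 of 44 translation factors higher, among them Eif3e (0.00227), and 1 of 41 decay genes higher. Of 78 oxidative phosphorylation genes it called 9 higher and 1 lower, and of 48 matrix genes 1 lower. Of members of these other lists DESeq2 called Cox7b, a subunit of cytochrome c oxidase (0.0416, voom 0.00375). Without Arid5a IL-17 4 edgeR called 4 ribosomal protein genes, 1 translation factor and 1 oxidative phosphorylation gene higher. In that fit 42 of 17608 tested transcripts were called higher. SR proteins and hnRNPs, which splice and package mRNA, had a median of 0.23, and 32 of 33 had a log2 fold above 0. Signs were not counted over the other well-expressed transcripts, whose median was also above 0. Of the 33, edgeR called 0, DESeq2 1 and limma voom 4, all higher. Hnrnpa3 was at 443, 903 and 537 CPM in the IgG and at 1376, 1495, 1102 and 825 CPM in the Arid5a libraries. IgG IL-17 3 lay above Arid5a IL-17 4, and the log2 fold was 0.94 ± 0.23 (SE, adjusted p = 0.183 with edgeR). The adjusted p of Hnrnpa3 was 0.0432 without Arid5a IL-17 4, 0.0247 with DESeq2 and 0.000674 with limma voom. With factors from well-expressed genes these medians lay between -0.04 and 0.07, and those of oxidative phosphorylation and extracellular matrix turned below 0.

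Lists of scarce transcripts were on the other side. The 695 tested olfactory and vomeronasal receptor genes, which stromal cells hardly use, had a median of -0.47, with 5 higher and 49 lower at an unadjusted p below 0.05. By level, 29 of the 520 with an average log2 CPM below 2 were lower (5.58%, beside 5.92% of all tested transcripts at that level) and 18 of the 167 between 2 and 3 (10.8%, beside 6.25%). Limma voom called 8 of the 695 lower, beside 235 of all 17835 tested transcripts (1.32%), and edgeR and DESeq2 none. Their summed level was 3361, 3237 and 2359 CPM in the IgG libraries, 1672, 1801 and 1404 CPM in Arid5a IL-17 1, 2 and 3, and 4048 CPM in Arid5a IL-17 4. The first 3 Arid5a libraries thus lay below every IgG library and the last above them all. Clustered protocadherins had a median of -0.44, predicted Gm genes -0.35 and interferon response genes -0.47. In medium the medians of these lists were 0.74, 0.52, 0.50 and 0.19, of the opposite sign, and whether the lists differ between treatments was not tested. Of the 695 receptor genes, 7 had a called drop of the fold from medium to IL-17 and 0 a called gain, beside 0.107% and 0.869% of all tested transcripts.

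Markers of other cell types were scarce, and none was called by edgeR. Of 20 tested epithelial and endothelial markers 16 had a log2 fold below 0, with a median of -0.88. The medians over all tested transcripts were -0.47 below a log2 CPM of 2 and -0.35 between 2 and 3. The list of these markers summed to 95.9, 90.4 and 101 CPM in the IgG and to 36.9, 33.3, 53.8 and 90.9 CPM in the Arid5a libraries. Arid5a IL-17 4 lay next to the IgG libraries and the other 3 well below. Of 9 tested myeloid markers 5 had a log2 fold above 0 and 4 below, and the list summed to 20.8 to 26.6 CPM in the IgG and 20.4 to 26.0 in the Arid5a libraries. Elane, S100a8, S100a9, Tyrobp and Fcer1g reached at most 3 counts in any library. Of 6 tested lymphocyte markers 5 were below 0, and the list summed to 22.0 to 42.0 CPM and 15.1 to 28.6 CPM. DESeq2 called 1 of the 6 lower (Tbx21, adjusted p = 0.0414) and limma voom 2 (Tbx21, 0.0158, and Cd8a, 0.0276). Over all tested transcripts DESeq2 called 0.163% and limma voom 1.32% lower. Of 11 tested adipocyte and muscle markers 5 had a log2 fold above 0 and 6 below, and the list summed to 79.2, 115 and 87.1 CPM in the IgG and to 95.6, 72.5, 93.4 and 95.7 CPM in the Arid5a libraries. Its most abundant gene, the fatty acid carrier Fabp4, averaged 32.3 CPM in the IgG and 37.4 CPM in the Arid5a libraries. The part of these markers and of the receptor genes in the folds of scarce transcripts was not tested, apart from the fit with the receptor CPM as a covariate, which left Nsa2, Rwdd1, Mat2a and Gm32687 called.

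**Figure D5:**
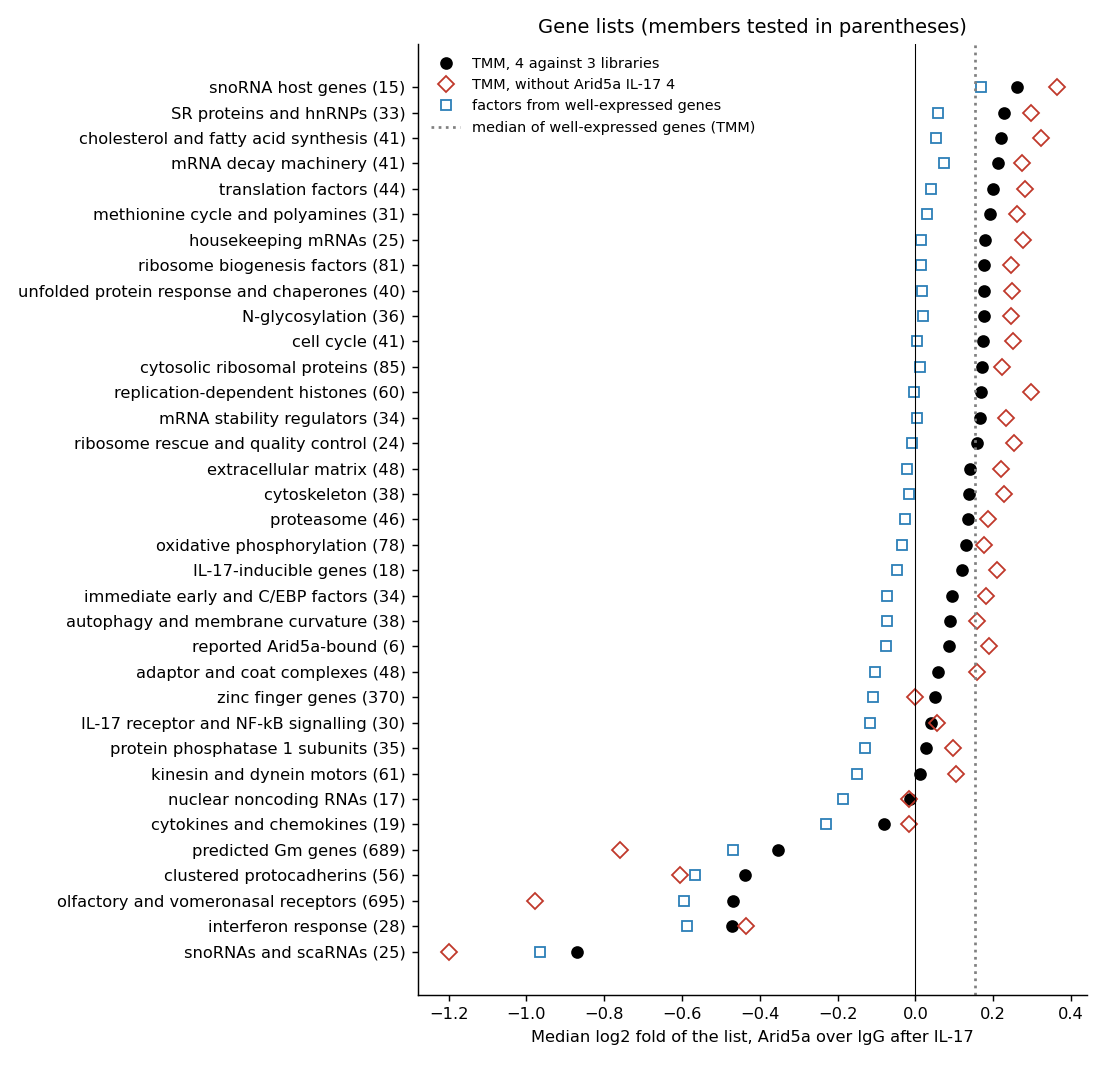
Median log2 fold (horizontal axis) of 35 gene lists, black with TMM factors, red diamonds without Arid5a IL-17 4 and blue squares with factors from well-expressed genes, with the number of tested members in parentheses and the median of well-expressed transcripts dotted. Lists of abundant mRNAs gather near 0.15, and snoRNAs and scaRNAs lie farthest left, at -0.87, -1.20 and -0.97.

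Transcript length went with the share of transcripts past the unadjusted threshold more than with the median fold. In 5 classes of the well-expressed transcripts by effective length, with 1078 in each and from the shortest to the longest, the median log2 folds were 0.17, 0.19, 0.16, 0.13 and 0.12, and Spearman's rho with length was -0.09. At an unadjusted p below 0.05, 203, 181, 127, 90 and 89 transcripts of these classes were higher and 31, 13, 10, 7 and 9 lower.

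The same antibody comparison in medium, with 8 libraries of its own, called 10 transcripts higher (0.0561%) and 102 lower (0.572%). One of these libraries was shallow: IgG medium 2 held 939139 counts over 15326 detected genes. The others from medium held 2128688 to 4580018 counts over 20857 to 22589 genes. No fit left IgG medium 2 out, so how far the values from medium rest on it was not tested. A single transcript, Nsa2, was called higher with either treatment, which is 10% of either list, and none was called lower in both. In medium Nsa2 stood at 358 ± 56.6 CPM (SD, n = 4) with Arid5a against 219 ± 36.3 (SD, n = 4) with IgG. The difference between its log2 folds, IL-17 minus medium, was 0.35 ± 0.23 (SE, adjusted p = 0.451). For Cyb5r3 the medium fold was 0.46 ± 0.16 (adjusted p = 0.189), for Mat2a 0.46 ± 0.17 (0.230) and for Snord1b -1.34 ± 0.40 (0.113), and the differences from these were not called.

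The fold after IL-17 exceeded that in medium for 155 transcripts (0.869%) and fell below it for 19 (0.107%), together 0.976% of those tested. Among the 12 called these were Ap3s1 (1.41 ± 0.30, adjusted p = 0.0202), Ppp1r11 (1.38 ± 0.27, 0.0149), Rwdd1 (1.06 ± 0.24, 0.0249) and Gm32687. The 12 were picked for their fold after IL-17, and the same libraries enter this difference, so the choice favours calls among them. Rwdd1 was at 186 ± 28.4 CPM (SD, n = 4) with Arid5a and 187 ± 30.6 (SD, n = 4) with IgG in medium. Its IgG level after IL-17 was 194 ± 65.8 (SD, n = 3), so only the Arid5a RIP after IL-17 stood higher, at 406 ± 44.5 (SD, n = 4). Ppp1r11 was at 70.2 ± 7.04 CPM with Arid5a and 94.0 ± 30.2 with IgG in medium (SD, n = 4 each). Ap3s1 was at 67.1 ± 6.98 and 86.8 ± 23.9 CPM there (SD, n = 4 each). For these 2 the means in medium ran in the opposite order to those after IL-17, with adjusted p of 0.306 and 0.450. For Hbs1l, Kif1c, Sh3glb1 and Zfp433 the difference was not called (adjusted p of 0.184, 0.153, 0.0547 and 0.0680). The difference was tested with TMM factors only, and in no fit without the shallow IgG medium 2. Medians of several lists of abundant mRNAs also turned from below 0 in medium to above 0 after IL-17. They were -0.35 and 0.13 for oxidative phosphorylation, -0.24 and 0.23 for SR proteins and hnRNPs, and -0.09 and 0.17 for cytosolic ribosomal proteins. Replication-dependent histones were above 0 in both, at 0.05 and 0.17. How far single differences follow this shift was not tested.

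Other genes named from the lists, none of them called after IL-17, also had a fold above that in medium. They were named for the smallest p of their lists after IL-17, a choice that favours such a difference too. Ostc, a subunit of the oligosaccharyltransferase, was at 36.8, 65.8 and 60.8 CPM in the IgG and at 112, 93.0, 81.9 and 61.7 CPM in the Arid5a libraries. Its groups overlapped, with a log2 fold of 0.69 ± 0.23 (SE, adjusted p = 0.347), against -0.87 ± 0.21 (adjusted p = 0.0465) in medium. Birc5, the survivin of cell division, had 0.49 ± 0.17 (adjusted p = 0.391) after IL-17 and -0.66 ± 0.16 (adjusted p = 0.0470) in medium. Ccl7 had 0.59 ± 0.18 after IL-17 and -0.94 ± 0.19 (adjusted p = 0.0171) in medium, a difference of 1.53 ± 0.26 (adjusted p = 0.0148). Eif3e, a subunit of the initiation factor eIF3, had 0.60 ± 0.15 (adjusted p = 0.141) and -0.58 ± 0.14 (adjusted p = 0.0470). The nuclear RNA Malat1, at 17581 to 20051 CPM in the IgG and 21163 to 26093 CPM in the Arid5a libraries, had 0.39 ± 0.13 (adjusted p = 0.328) and -0.47 ± 0.12 (adjusted p = 0.0470). In these 5 the sign turned between the treatments, and the difference itself was called in each. Gapdh, often used as a reference mRNA, had 0.04 ± 0.14 after IL-17, and its sign changed with the setting.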

How the data were processed

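RNA from Arid5a and IgG2b immunoprecipitates of ST2 cells was sequenced with the SMART-Seq Stranded kit, per the labels' protocols. The authors deposited expected counts, which were rounded to whole numbers for the tests, and FPKM per gene. The submitters' processing notes name mm10 as the build, R 4.3.0, DESeq2 1.36.0, RSEM 1.3.1 and STAR 2.7.9. What each tool did, which annotation was used and how strand was handled is not given in the sources used here.

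Of 25239 genes, 17835 passed filterByExpr and were scaled with TMM. Group means over all 15 libraries were fitted with edgeR 4.0.16 (robust quasi-likelihood, R 4.3.3), and p-values were adjusted by Benjamini-Hochberg over all transcripts tested. The procedure was tested on simulated data. Alternatives used DESeq2 1.42.0 and limma 3.58.1. Scaling, filter, the libraries fitted, a replicate block and limma on log2(FPKM + 1 or + 0.1) were varied too.

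Named were the 12 called transcripts, the next 15 higher and 10 lower with non-overlapping groups and an average log2 CPM of at least 2, up to 2 genes per list, and fixed genes of interest. The libraries, lists and genes were chosen with earlier results of these data known. The sum of Zfp433 and Gm32687 was added after the values were seen, as were Pelo and Snhg16 and the snoRNAs other than Snord1b. Symbols matched RefSeq (GRCm38.p6, the assembly that mm10 names) for 99.22%, which gave gene positions without strand, and promoter windows. Total counts bound the precision of every value, and intervals cover counting and library spread only.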

Additional observations from a re-analysis of the deposited data

Results flagged for a closer look

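For the following transcripts the log2 fold of Arid5a over IgG differed between IL-17 and medium by edgeR's test of that difference (Benjamini-Hochberg adjusted p below 0.05 over all transcripts tested). They were named by their p after IL-17, and the same libraries enter the difference, so that choice favours calls among them. Among the called transcripts, the fold after IL-17 was greater by 1.41 for Ap3s1, 1.38 for Ppp1r11 and 1.06 for Rwdd1. For Gm32687 the fitted difference of 8.63 depends on the prior count, since its IgG libraries after IL-17 are all at 0, and the sum with Zfp433 had a log2 fold of 0.23 ± 0.58 (SE) after IL-17.

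Of transcripts near the threshold after IL-17, the difference was 1.67 for Psmg4, 1.34 for Chpt1, 0.80 for Rangap1, 1.38 for Ndufb4c and 1.20 for Rpl35. For Ugt1a1 it was -2.31.

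Of list members it was 1.53 for Ccl7, 1.18 for Eif3e, 0.98 for Cox7b, 1.56 for Ostc and 2.65 for Alg8. It was 0.69 for Tcp1, 1.46 for Hnrnpa3, 0.87 for Cfl1, 1.89 for Cenpm, 1.15 for Birc5, 0.83 for Tagln2, 0.84 for Qk and 0.86 for Malat1. For Pcdhga9, a clustered protocadherin, it was -2.94, and for the receptor genes Olfr1385 and Vmn1r58 it was -3.79 and -5.996. The adjusted p of all these differences lay between 0.0148 and 0.0473.

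In the following, a single Arid5a library after IL-17 lay far from the other 3 by Dixon's test. Chance alone meets this in about 1 of 20 groups of 4. The test was made on each named transcript that passed the filter and on the sums of 35 gene lists and 5 marker lists. So some of the 14 results below would be met by chance alone. The lists also share libraries and some genes. In 11 of the 14 the library apart was Arid5a IL-17 4. There Atoh1 was at 5.66 CPM against 3.19 to 3.56, Nckap1l at 3.96 against 1.15 to 1.37, Gbp4 at 8.78 against 2.49 to 2.73, Rnu12 at 50.1 against 17.8 to 19.3 and Scarna13 at 578 against 163 to 226. Chuk was lower there, at 64.0 against 89.6 to 94.1. The summed CPM was lower in that library for N-glycosylation genes (4910 against 5810 to 5940), for chaperones and the unfolded protein response (21600 against 24700 to 24800), for SR proteins and hnRNPs (11800 against 14600 to 15100) and for cell cycle genes (5990 against 7800 to 8070). It was higher for olfactory and vomeronasal receptors, at 4050 against 1400 to 1800. In Arid5a IL-17 1, Nfkbia was at 119 CPM against 90.4 to 92.7. In Arid5a IL-17 2, Gnl3 was at 195 CPM against 166 to 170, and adipocyte and muscle markers summed to 72.5 against 93.4 to 95.7.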

How the results depend on the processing

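Against 10 transcripts called higher and 2 lower (12 in all), upper-quartile factors called 6 and 0 (6 in all), library totals 6 and 2, factors from well-expressed genes 0 and 0, DESeq2 42 and 29 (71), limma voom 244 and 235 (479), no filter 24 and 2 (26), a filter of 10 counts or more throughout 1 group 6 and 1 (7), the receptor CPM as a covariate 4 and 0 (4), limma on log2(FPKM + 1) and on log2(FPKM + 0.1) each 2 and 3 (5), and the added-up pair of Zfp433 and Gm32687 5 and 0 (5). With only the 7 IL-17 libraries 8 and 2 were called. Leaving out 1 library gave 2 to 42 higher, 0 to 34 lower and 2 to 76 in all, the fewest without IgG IL-17 4 and the most without Arid5a IL-17 4. Cyb5r3, Mat2a, Rwdd1 and Nsa2 were called in 14, 15, 15 and 17 of 20 alternatives, and Sh3glb1, Ap3s1, Kif1c and Ppp1r11 in 4 or 5. DESeq2 gave Zfp433 no adjusted p, and Snord1b could not be fitted on FPKM, where it is listed at 0. With the replicate number as a block 5 were called higher and 0 lower (5 in all). Whether the numbers pair the samples is not said in the labels. Deviations of same-numbered libraries correlated at -0.07, -0.06 and 0.05, which cannot decide it with so few libraries.

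The sign turned, never with a called value, for 6 named transcripts. Ccl2 fell to -0.054 with upper-quartile factors, -0.064 with library totals, -0.103 with factors from well-expressed genes, -0.012 with DESeq2 and -0.035 with the receptor covariate. Gapdh went to -0.058, -0.069, -0.108, -0.0054 and -0.014 under the same 5 settings. Cebpb went to 0.198 with voom, 0.023 with no filter and 0.012 with the block, and Cebpd to 0.124, 0.024 and 0.076 under these 3. Cxcl1 went to 0.162 with voom, 0.012 with log2(FPKM + 1) and 0.013 with log2(FPKM + 0.1). Over the fits that leave out 1 library, log2 folds ran from -0.099 to 0.326 for Ccl2, -0.029 to 0.184 for Gapdh, -0.113 to 0.167 for Cebpb, -0.134 to 0.204 for Cebpd, -0.334 to 0.266 for Cxcl1 and -0.657 to 0.047 for Arid5a. With library totals the summed difference, Arid5a minus IgG, turned to -7.247 CPM for stromal and to -1.694 CPM for myeloid markers. The cause of these shifts was not tested. Of the other values of single named transcripts, 1872 kept their side of the threshold, 117 lost a call and 151 gained one, all in the same direction. Depth limits scarce transcripts: Snord1b rests on 13 to 116 counts and Zfp433 on at most 43.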
